A study of Mus musculus with 103 samples.

Results

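The genes described here are 41 genes of DNA replication and mitosis, picked by symbol as a functional group from the 43283 genes with an Ensembl ID in a study of muscle stem cells from ageing mice. They comprise 12 genes of origin licensing and the replicative helicase, 4 of the replication fork and its polymerases, 3 of nucleotide synthesis, 8 cyclins and kinases of G1 and of the G1/S step, 12 genes of G2 and mitosis, and 2 transcription factors of the cycle. RNA was sequenced in bulk from 3 old mice of 24 months, 2 middle-aged mice of 12 and 13 months, and 3 young mice. All mice were C57BL/6 and untreated, and the young ones are given as 3 months old in the age field and as 2 months in the description. Single cells were sequenced from 31 wells of 1 old mouse and 64 wells of 1 young mouse, also untreated C57BL/6 at 24 and 3 months. The labels give no sort gate. They describe culture in medium with FGF-2 but leave the time of RNA isolation relative to it unstated, and the series design speaks of myoblasts. Bulk RNA came from 5000 to 10000 cells per library and was amplified before sequencing. In such bulk RNA, fewer cells of a type and less RNA per cell cannot be told apart.

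Muscle stem cells rest outside the cell cycle alongside muscle fibres, and enter it after injury to make myoblasts. Before S phase, Cdc6 and Cdt1 load the Mcm2 to Mcm7 ring onto origins, and Cdc45 with the GINS complex turns that ring into the working helicase. D-type cyclins with Cdk4 or Cdk6 inactivate the retinoblastoma protein, which frees E2F factors to switch on replication genes. Later, Foxm1 and the MuvB complex switch on the genes of G2 and mitosis, such as those for B-type cyclins and Aurora kinases. Resting cells therefore hold little RNA of most of these genes, while D-type cyclins and Pcna, the clamp of the fork, can be present outside S phase.

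Promoter sequences of 4 members are shown because 2 young wells, described further on, differed in the members they held. Ccnb2 (cyclin B2) and Cdk1 (its kinase partner at entry to mitosis) were found in 1 of them. Mcm5 and Mcm6 (subunits of the helicase ring) were found at 1 TPM or more in the other. The well with Ccnb2 and Cdk1 held Mcm5 at 0.9 TPM. Each line gives the 250 bases before the transcription start, 5′ to 3′ on the strand of the gene, from RefSeq on GRCm38.p6. The positions are chr9:70421555-70421804 (minus strand) for Ccnb2, chr10:69352913-69353162 (minus strand) for Cdk1, chr8:75109259-75109508 (plus strand) for Mcm5 and chr1:128359706-128359955 (minus strand) for Mcm6. Capitals mark the letters TTCGCGC or TTGGCGC, bound by E2F factors, TTTGAA or TTCGAA, the core of the cell cycle homology region used by MuvB, and CCAAT, the box bound by NF-Y, on either strand.
Ccnb2: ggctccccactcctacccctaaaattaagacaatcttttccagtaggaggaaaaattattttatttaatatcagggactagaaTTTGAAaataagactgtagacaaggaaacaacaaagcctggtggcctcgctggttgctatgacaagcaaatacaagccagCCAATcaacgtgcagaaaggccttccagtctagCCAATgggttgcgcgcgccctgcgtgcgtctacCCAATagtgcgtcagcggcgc
Cdk1: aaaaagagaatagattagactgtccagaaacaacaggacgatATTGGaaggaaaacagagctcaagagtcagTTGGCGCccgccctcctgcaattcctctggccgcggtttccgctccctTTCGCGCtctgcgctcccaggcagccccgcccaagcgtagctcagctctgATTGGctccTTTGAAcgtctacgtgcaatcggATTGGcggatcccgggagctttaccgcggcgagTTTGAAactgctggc
Mcm5: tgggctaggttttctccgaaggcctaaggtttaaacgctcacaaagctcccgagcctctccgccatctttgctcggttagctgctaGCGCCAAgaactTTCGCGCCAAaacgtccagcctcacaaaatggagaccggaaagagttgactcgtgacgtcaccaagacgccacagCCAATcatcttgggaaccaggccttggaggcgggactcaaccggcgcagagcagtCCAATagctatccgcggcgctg
Mcm6: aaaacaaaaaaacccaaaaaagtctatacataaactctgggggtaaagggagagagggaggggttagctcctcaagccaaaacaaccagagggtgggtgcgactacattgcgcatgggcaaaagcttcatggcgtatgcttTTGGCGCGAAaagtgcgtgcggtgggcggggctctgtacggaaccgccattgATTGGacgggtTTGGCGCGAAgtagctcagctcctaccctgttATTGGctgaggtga
Ccnb2 held 3 CCAAT boxes, at 21, 54 and 87 bases before the start, and 1 TTTGAA at 167 bases. Cdk1 held TTTGAA at 15 and at 71 bases before the start, beside 3 CCAAT boxes and 2 E2F matches. Mcm5 held 3 E2F matches, of which 2 overlap each other, and Mcm6 held 4, as 2 overlapping pairs, while neither held TTTGAA or TTCGAA.

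The same letters were counted in windows of 300 bases, 250 before to 50 after the start, which RefSeq gave for 31 of the 41 members and for 27025 genes in all. Where a gene had more than 1 window, a match in any of them counted. The homology region letters were in 8 of 10 mitosis and G2 members (80.0%), Aurka, Bub1, Ccnb2, Cdk1, Cenpa, Mki67, Plk1 and Top2a, against 3 of 9 licensing and helicase members (33.3%) and 21.7% of all genes with a window. The E2F letters were in 6 of 9 licensing and helicase members (66.7%), Cdt1, Mcm3, Mcm5, Mcm6, Mcm7 and Topbp1, against 3 of 10 mitosis members (30.0%) and 4.47% of all genes. CCAAT was in 21 of 31 members (67.7%), against 41.1% of all genes. CCAAT and TTGGCGC can share letters where one runs into the other on opposite strands. A match describes the letters of the window and is neither a site nor a cause.

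The bulk values are TPM, shares of a library that take gene length into account, so levels of different genes can be set side by side. Mitochondrially encoded genes took 32.7 to 46.5% of each library. Pairs of libraries correlated across genes at r = 0.546 to 0.749 within ages and 0.551 to 0.686 between ages. Pairs of old libraries, at 0.724 to 0.749, lay above every pair between ages. Of the 22492 genes averaging 1 TPM or more, 66.1% had a listed 0 in some library. A listed 0 may be a failed estimate in these amplified libraries, which was not tested. Every library held all 10 muscle stem cell markers (Pax7, Myf5, Calcr and others), summing to 1421 to 2142 TPM in old, 1714 to 2344 TPM in middle-aged and 2186 to 2636 TPM in young libraries. Markers of other cell types differed in range between ages. The 6 Schwann cell markers summed to 383 to 1172, 166 to 289 and 67.5 to 136 TPM in old, middle-aged and young libraries, and the 8 macrophage markers, with C1qa at 0 throughout, to 28.4 to 60.4, 85.0 to 114 and 29.1 to 49.4 TPM. The 6 endothelial markers, with Tie1 and Cldn5 at 0 throughout, summed to 25.4 to 35.9, 34.3 to 76.6 and 11.6 to 15.04 TPM. The 7 fibroblast markers summed to 551 to 1160, 627 to 689 and 327 to 649 TPM, and the 6 lymphocyte markers, with Nkg7 at 0 throughout, to 6.44 to 13.9, 28.2 to 63.2 and 0 to 26.99 TPM. The 5 smooth muscle and pericyte markers (391 to 823, 475 to 643 and 433 to 577 TPM) and the 4 red blood cell markers (19.5 to 26.3, 0 to 65.5 and 24.4 to 77.0 TPM) overlapped between all ages. The part of these cells in the results on members was not tested.

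The 41 members together summed to 353, 429 and 445 TPM in the 3 old libraries, 478 and 493 TPM in the 2 middle-aged ones, and 504.85, 409 and 481 TPM in the 3 young ones. Old and young libraries overlapped in this sum. Members at 1 TPM or more, called found, numbered 30, 29 and 30 in old, 30 and 33 in middle-aged, and 32, 19 and 23 in young libraries. The young library with 19 members was also the one with the fewest genes found of any kind, 12849 against 14262 to 17114 in the other libraries.

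**Figure D1:**
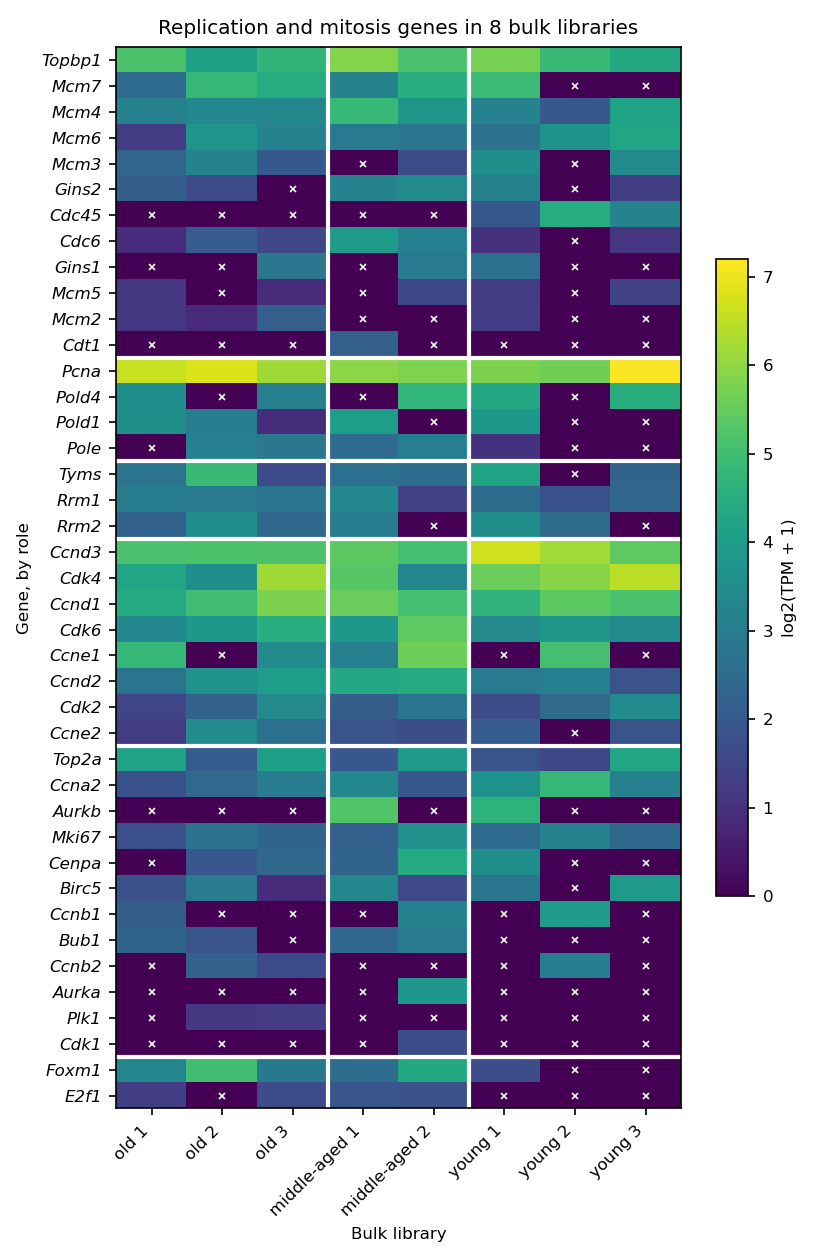
Levels of the 41 members (rows, grouped by role and ordered by mean) in the 8 bulk libraries (columns), as log2(TPM + 1). White crosses mark values listed at 0: Pcna, Ccnd3, Cdk4, Ccnd1 and Topbp1 have none, while many lower members have crosses at every age.

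Only 5 members averaged 20 TPM or more, and none of these was listed at 0 in any library. They were Pcna (79.8 TPM over the 8 libraries), Ccnd3 (49.2 TPM), Cdk4 (42.6 TPM), Ccnd1 (35.5 TPM) and Topbp1 (33.4 TPM), which activates the ATR checkpoint kinase and helps to start origins. Their library values overlapped between neighbours in this order. Of the 36 members with a mean of at least 1 TPM, 22 (61.1%) had a 0 in at least 1 library, close to the 66.1% of all such genes. The 5 members below that mean, Cdk1, Plk1, Mcm2, Mcm5 and Cdt1, were not tested. Cdk1, the mitotic kinase, was listed at 0 in 7 libraries and at 2.34 TPM in 1 middle-aged library. Plk1, a kinase of spindle assembly, had 0, 1.29 and 1.4 TPM in old libraries and 0 in all middle-aged and young ones.

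Old against young libraries asked which cycle genes differ at 24 months. No member passed the test, and 0.0% of the 22492 tested genes did (limma on log2(TPM + 1), Benjamini-Hochberg adjusted p threshold of 0.05). At an unadjusted p under 0.05, 1 member was higher in old libraries, Foxm1, and 2 were lower, Cdc45 and Ccnd3. The same rule took 3.72% of all genes as higher and 2.17% as lower, and thus 2.78% and 5.56% of the 36 tested members. Groups did not overlap for 2 higher members, Foxm1 and Rrm1, and 3 lower ones, Cdc45, Ccnd3 and Ccna2, at a background of 5.85% and 4.16% of all genes. In sign alone, 21 members were higher and 14 lower in old libraries, with a median log2 difference of 0.23 against 0.00 over all tested genes, of which 49.6% were above 0. For non-overlap, the background shares correspond to 2.106 higher and 1.498 lower of 36 members, against the 2 and 3 seen. Leaving out single libraries moved the median to between 0.036, without young replicate 2 (18 higher and 17 lower), and 0.32, without old replicate 1. It gave 1 to 2 members at an unadjusted p under 0.05 in each direction.

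Cdc45, the helicase cofactor, lies at chr16:18780447-18811987 on mm10 in GENCODE vM21. It was listed at 0 in all 3 old libraries and both middle-aged ones, against 2.97, 20.9 and 8.11 TPM in the 3 young libraries. It was thus seen in every young library and in none of the others, a pattern of 29 of the 22492 tested genes (0.129%), Cdc45 included. The reverse pattern, 0 in every young library and above 0 in all others, held for 108 genes (0.48%) and 0 members. These counts were made with the values of Cdc45 known and are a description only. Cdc45 had an unadjusted p of 0.00519 and an adjusted p of 0.638 in limma for old against young, and no fold is given against a group at 0. Its locus overlaps that of Ufd1 on the other strand, and the labels do not state whether counting used strand. The 2 GINS subunits among the members, which work beside Cdc45, did not share the pattern seen for Cdc45. Gins1 had 0, 0 and 6.26 TPM in old, 0 and 6.97 TPM in middle-aged, and 5.14, 0 and 0 TPM in young libraries. Gins2 had 3.34, 2.2 and 0 TPM in old, 8.16 and 9.66 TPM in middle-aged, and 8, 0 and 1.54 TPM in young libraries.

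Of the Mcm ring itself, no subunit separated old from young libraries. Mcm4, above 0 in all 8 libraries, had 7.96, 9.18 and 9.13 TPM in old, 27.2 and 13.01 TPM in middle-aged, and 8.18, 2.86 and 17.1 TPM in young libraries. Mcm6 had 1.42, 12.3 and 8.13 TPM in old libraries, against 5.56, 11.7 and 17.9 TPM in young ones. Mcm7 had 4.75, 26.7 and 21.1 TPM in old libraries, against 28.9, 0 and 0 TPM in young ones, and its locus overlaps Cops6 and Ap4m1. The young library with 28.9 TPM of Mcm7 lay above every old one, while the other two were listed at 0. Mcm3 had 4.08, 8.39 and 2.98 TPM in old and 10.98, 0 and 9.67 TPM in young libraries, so its ages overlapped as well.

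At the fork, Pcna had 95.3, 113 and 71.3 TPM in old, 61.1 and 55.03 TPM in middle-aged, and 53.7, 48.5 and 141 TPM in young libraries. A single young library held the highest value of all, so that old and young overlapped. Annotated pseudogenes of Pcna could share its reads. The polymerase subunits were patchier: Pold1, the catalytic subunit of polymerase delta, had 10.8, 7.26 and 0.91 TPM in old libraries, against 13.3, 0 and 0 TPM in young ones. Pole, its counterpart on the leading strand, had 0, 7.72 and 6.17 TPM in old libraries, against 1.08, 0 and 0 TPM in young ones. Pold4, a small accessory subunit, had 10.6, 0 and 7.78 TPM in old libraries, against 19.2, 0 and 21.7 TPM in young ones. Its locus overlaps another protein-coding gene on the same strand.

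None of the 3 genes that make DNA building blocks passed the test. Rrm1, the large subunit of ribonucleotide reductase, had 7.11, 6.83 and 5.93 TPM in old libraries, against 4.87, 2.55 and 4.17 TPM in young ones, while the middle-aged libraries had 9.36 and 1.66 TPM. Its lowest old value was thus above its highest young value, with a log2 difference of 0.68 (SE 0.76, unadjusted p = 0.391, adjusted p = 0.876 in limma). Rrm2, the regulatory subunit that S-phase cells make, had 3.85, 10.98 and 4.29 TPM in old libraries, against 10.8, 4.82 and 0 TPM in young ones. Tyms, thymidylate synthase, had 5.87, 28.4 and 2.06 TPM in old libraries, against 17.3, 0 and 3.86 TPM in young ones. The signs of Rrm2 and Tyms rest on single young libraries listed at 0. The log2 difference of Rrm2 for old minus young was 0.72 with all libraries and -0.30 without young replicate 3, and that of Tyms was 0.93 and, without young replicate 2, -0.15.

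Among the G1 genes, cyclin D3 (Ccnd3, chr17:47505051-47599691) separated the ages. It had 34.3, 34.5 and 35.8 TPM in old libraries, 40.5 and 31.98 TPM in middle-aged ones, and 102, 72.8 and 41.8 TPM in young ones. The means were 34.9 ± 0.83 TPM in old (SD, n = 3), 36.3 ± 6.04 TPM in middle-aged (n = 2) and 72.2 ± 30.1 TPM in young libraries (n = 3). Every old and middle-aged library lay below every young one, though the lowest young library (41.8 TPM) and the higher middle-aged one (40.5 TPM) were close. The log2 difference of Ccnd3 was -0.94 for old minus young (SE 0.41, 95% interval -1.85 to -0.03, unadjusted p = 0.0448, adjusted p = 0.833 in limma). Its locus overlaps Bysl on the other strand and it has an annotated pseudogene. Ccnd1, the D-type cyclin of growth factor signalling, had 20.7, 30.8 and 54.1 TPM in old libraries, against 24.8, 41.03 and 34.3 TPM in young ones. Cdk4, the kinase partner of these cyclins, had 17.7, 10.6 and 70.6 TPM in old libraries, against 47.2, 59.02 and 88.2 TPM in young ones. A single old library, with 70.6 TPM, lay within the young range of Cdk4. Ccne1, cyclin E1, had 26.9, 0 and 10.1 TPM in old libraries, against 0, 32.6 and 0 TPM in young ones.

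**Figure D2:**
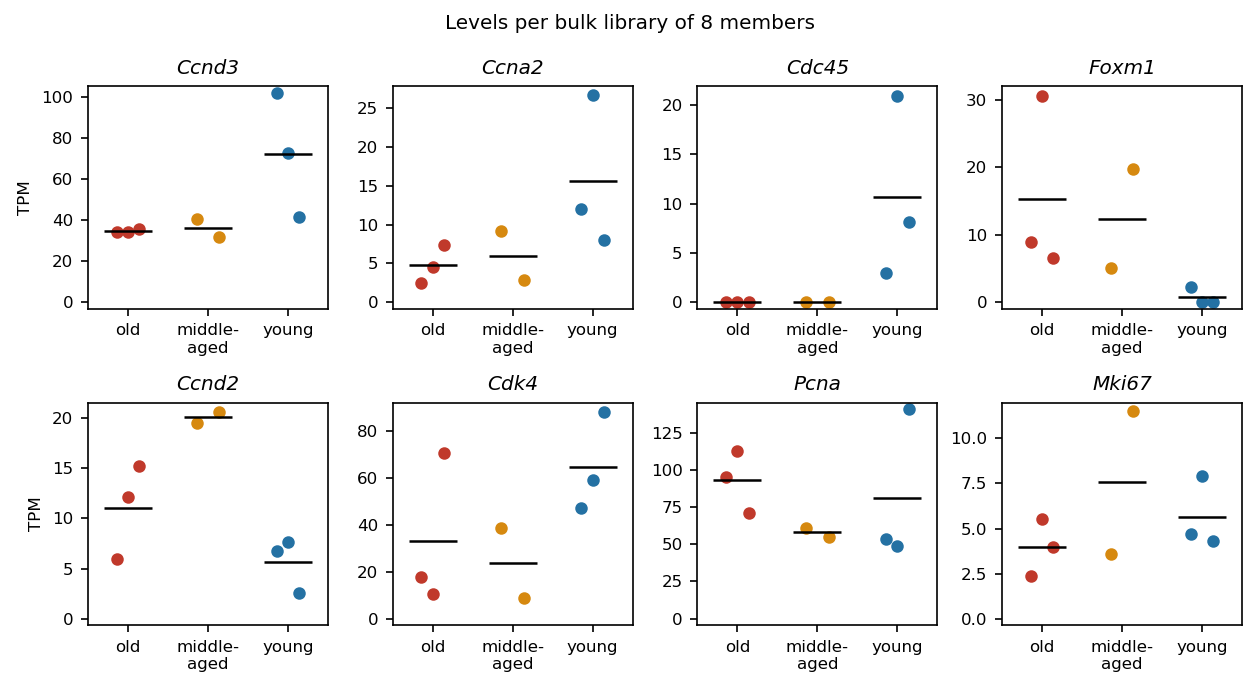
TPM of 8 members in each bulk library (dots), with the group mean as a black line, for old (left), middle-aged and young (right) libraries. Cdc45 is at 0 outside the young libraries, Ccnd3 is lower in old and middle-aged libraries than in every young one, and Mki67 overlaps between ages.

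In G2 and mitosis, cyclin A2 (Ccna2, chr3:36564865-36572150), which drives S phase and the entry to mitosis, had 2.51, 4.55 and 7.35 TPM in old libraries, 9.19 and 2.84 TPM in middle-aged ones, and 12.1, 26.7 and 7.99 TPM in young ones. The old and young libraries did not overlap, by a narrow gap between 7.35 and 7.99 TPM. Its log2 difference was -1.44 for old minus young (SE 0.73, unadjusted p = 0.0747, adjusted p = 0.839 in limma), and it shares its locus with Exosc9 on the other strand. Mki67, which coats mitotic chromosomes and is the usual proliferation marker, had 2.35, 5.54 and 4 TPM in old libraries, against 4.69, 7.89 and 4.29 TPM in young ones. Top2a, the topoisomerase that untangles replicated chromosomes, had 16.6, 3.29 and 15.7 TPM in old libraries, against 2.66, 1.93 and 18.4 TPM in young ones. Both overlapped between old and young. The Aurora kinases were each carried by single libraries: Aurka was listed at 0 in all but 1 middle-aged library (12.8 TPM), and Aurkb in all but 1 middle-aged (37.01 TPM) and 1 young library (24.1 TPM). The summed level of the 12 mitosis and G2 members was 31.4, 30.8 and 35.8 TPM in old, 70.1 and 80.8 TPM in middle-aged, and 60.6, 58.4 and 44.4 TPM in young libraries. That sum, looked at after the values were seen, did not overlap between old and the other ages. Without Aurkb it was 33.05 and 80.8 TPM in middle-aged libraries, the first inside the old range, and 36.6, 58.4 and 44.4 TPM in young ones, just above it. Of the 10 tested mitosis and G2 members, 4 were higher and 5 lower in old against young libraries, with a median log2 difference of -0.17 and 0 at an unadjusted p under 0.05.

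Of the 2 transcription factors, neither passed the test. Foxm1 (chr6:128362967-128376146), which drives the G2 and mitosis programme, had 8.87, 30.5 and 6.57 TPM in old libraries, 5.08 and 19.7 TPM in middle-aged ones, and 2.27, 0 and 0 TPM in young ones. Each old and middle-aged library held more than each young one. The log2 difference was 3.16 for old minus young (SE 0.90, 95% interval 1.16 to 5.17, unadjusted p = 0.00533, adjusted p = 0.638 in limma), on a scale where the listed zeros set its size. The Foxm1 locus overlaps Tex52 and a predicted gene on the same strand. The B-type cyclin genes, which Foxm1 is known to switch on, did not share this order. Ccnb1 had 3.38, 0 and 0 TPM in old libraries, against 0, 14.9 and 0 TPM in young ones, and Ccnb2 had 0, 3.82 and 2.08 TPM in old libraries, against 0, 7.11 and 0 TPM in young ones. E2f1, an activator of replication genes, had 1.52, 0 and 2.22 TPM in old libraries and 2.8 and 2.48 TPM in middle-aged ones, and was listed at 0 in the 3 young ones. Both middle-aged values of E2f1 lay above every old one.

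**Figure D3:**
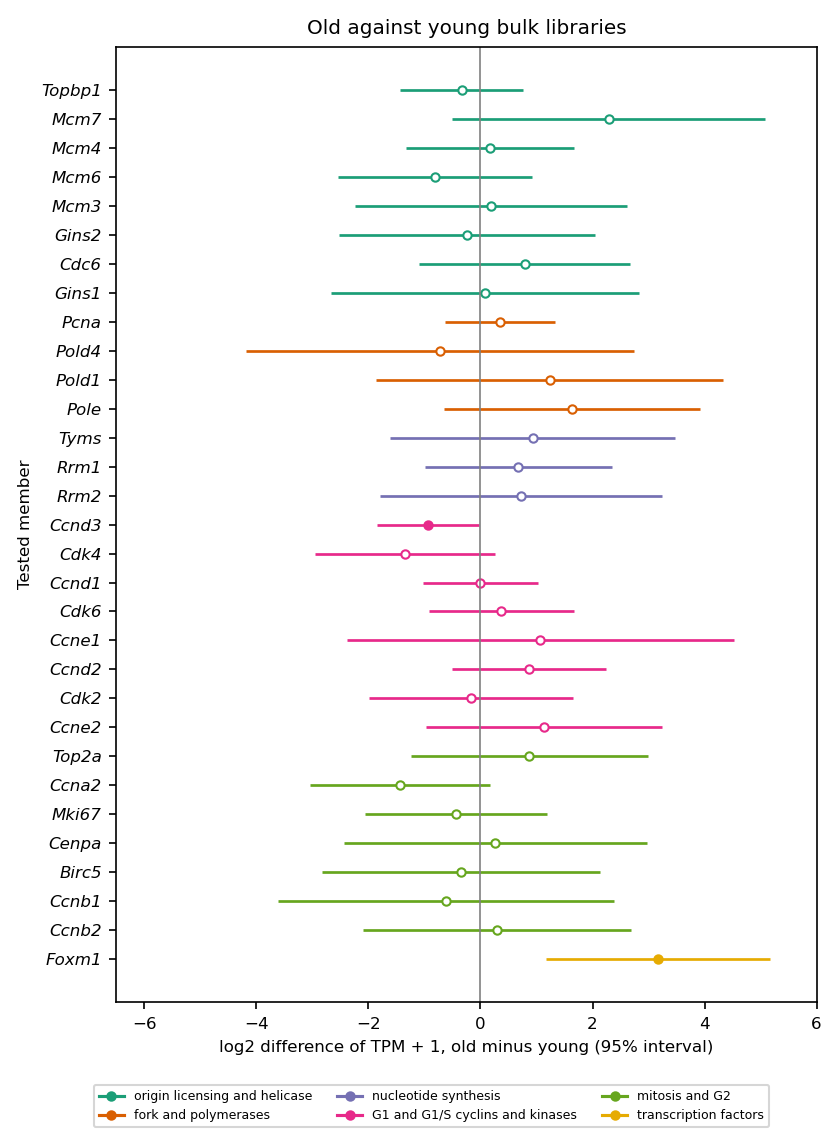
Log2 differences of TPM + 1 for old minus young libraries, with 95% intervals, for the 31 tested members that are above 0 in both ages; the 5 with an age wholly at 0 are left out. Filled points have an unadjusted p under 0.05: Ccnd3 lies at -0.94 and Foxm1 at 3.16, and the intervals of all other members span 0.

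Middle-aged against young libraries used the same young samples, so the 2 comparisons are not independent. No member passed the test (0.00445% of genes did, 1 gene). At an unadjusted p under 0.05, 4 members were higher in middle-aged libraries, Cdc6, Foxm1, Bub1 and Ccnd2, at a background of 5.5% of genes, and 1 was lower, Cdc45, at a background of 2.28%. Groups did not overlap for 8 higher and 3 lower members (22.2% and 8.33% of the 36 tested), at a background of 12.6% and 5.37% of genes. In sign, 25 members were higher and 11 lower, with a median log2 difference of 0.46 against 0.18 over all tested genes, 55.2% of which were above 0. For non-overlap, the background shares correspond to 4.55 higher and 1.932 lower of 36 members. Without young replicate 1, 8 members were higher at an unadjusted p under 0.05 and the median of members was 0.87. After quantile normalisation, which sets the median of all genes to 0.00, the split was 19 higher and 17 lower with a median of 0.21.

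Cyclin D2 (Ccnd2, chr6:127125162-127152193) had 19.5 and 20.6 TPM in the 2 middle-aged libraries, against 6.79, 7.68 and 2.59 TPM in young ones, while old libraries had 5.91, 12.1 and 15.2 TPM. Both middle-aged libraries lay above every old and young one. The log2 difference of Ccnd2 was 1.75 for middle-aged minus young (SE 0.70, 95% interval 0.21 to 3.30, unadjusted p = 0.0295, adjusted p = 0.568 in limma) and -0.89 for old minus middle-aged (SE 0.70, adjusted p = 0.795). Antisense genes overlap its locus. Cdc6, the licensing loader, had 14.2 and 7.99 TPM in middle-aged libraries, against 1.05, 0 and 1.2 TPM in young ones, and 0.87, 3.28 and 1.91 TPM in old ones. Cdc6 was thus highest in both middle-aged libraries, with a log2 difference of 2.82 for middle-aged minus young (SE 0.95, unadjusted p = 0.0132, adjusted p = 0.449 in limma). Bub1, a kinase of the spindle checkpoint, had 4.41 and 6.61 TPM in middle-aged libraries, was listed at 0 in all 3 young ones, and had 4.03, 2.65 and 0 TPM in old ones. No fold is given against a group at 0, and its adjusted p was 0.550 in limma.

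Other members separated middle-aged from young libraries without reaching an unadjusted p of 0.05. Cdk4 had 38.9 and 8.84 TPM in middle-aged libraries and lay below all young ones (log2 difference -1.68, SE 0.81, adjusted p = 0.626 in limma). Cdk6, the other partner of the D-type cyclins, had 13.2 and 41.4 TPM in middle-aged libraries, against 9.41, 12.9 and 9.83 TPM in young ones (1.08, SE 0.65, adjusted p = 0.626 in limma). Both differences rest largely on middle-aged replicate 2: without it the log2 difference was -0.67 for Cdk4 and 0.29 for Cdk6, and without middle-aged replicate 1 it was -2.69 and 1.87. Ccnd3 lay low in middle-aged libraries as well, with a log2 difference of -0.89 (SE 0.46, adjusted p = 0.626 in limma). Foxm1 had a log2 difference of 2.92 for middle-aged minus young (SE 1.01, unadjusted p = 0.0155, adjusted p = 0.470 in limma).

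Old against middle-aged libraries gave no member past the test either, nor any at an unadjusted p under 0.05 (0.0% of genes past the test, and 2.34% higher and 3.85% lower at an unadjusted p under 0.05). Groups did not overlap for 2 higher members, Mcm3 and Pcna, and 6 lower ones, Cdc6, Gins2, Mcm4, Ccnd2, Bub1 and E2f1, at a background of 7.15% and 12.8% of genes. In sign, 12 members were higher and 23 lower, with a median of -0.21 against -0.09 over all genes, of which 42.4% were above 0. After quantile normalisation 17 were higher and 18 lower. Mcm4 had a log2 difference of -1.03 for old minus middle-aged (SE 0.76, adjusted p = 0.781) and Pcna one of 0.65 (SE 0.49, adjusted p = 0.789 in limma). With only 2 middle-aged libraries, each of these orders rests on the values of both.

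Genes of the same pathways outside the 41 were described from 3 lists, other replication genes (44), other mitosis genes (40) and brakes of the cycle with E2F partners (31). None of the 40, 31 and 29 tested genes of these lists passed the test in any comparison. For old against young, 26 of 40 replication genes were higher and 14 lower (median log2 difference 0.30), and 20 of 31 mitosis genes were higher and 11 lower (median 0.45). For middle-aged against young, replication genes split 21 higher to 18 lower and mitosis genes 22 to 8, with medians of 0.09 and 0.54. For old against middle-aged, replication genes split 23 to 17 and mitosis genes 12 to 18, with medians of 0.28 and -0.13. Racgap1, a factor of cytokinesis, had 2.81, 14.2 and 9.24 TPM in old libraries, against 1.08, 0 and 1.93 TPM in young ones (log2 difference 2.20, SE 0.92, adjusted p = 0.828 in limma). Pold3, another subunit of polymerase delta, had 12.4 and 10.99 TPM in middle-aged libraries, against 27.3, 50.04 and 41.5 TPM in young ones (-1.64, SE 0.50, adjusted p = 0.400 in limma). Tacc3, a spindle protein, had 50.1 and 35.7 TPM in middle-aged libraries, against 0, 9.68 and 10.4 TPM in young ones (3.13, SE 1.05, adjusted p = 0.449 in limma). Ncapd2, a condensin subunit, had 51.6 and 14 TPM in middle-aged libraries, against 11.05, 0 and 0 TPM in young ones (3.62, SE 1.47, adjusted p = 0.586 in limma). Both lay above every young library without passing the test. Of the clamp loader subunits, Rfc1 had a log2 difference of -1.88 for middle-aged minus young (adjusted p = 0.511) and Rfc2 one of 3.00 (adjusted p = 0.559 in limma). Orc6, an origin recognition subunit, had 3.09 for middle-aged minus young (adjusted p = 0.606) and -3.12 for old minus middle-aged (adjusted p = 0.724 in limma). For old minus middle-aged, Orc2 had 2.18 and Rpa1, of the single-strand binding complex, 2.17 (adjusted p = 0.724 each in limma). Gins4 had 9.79, 6.58 and 16.8 TPM in old libraries and was listed at 0 in both middle-aged ones (adjusted p = 0.693 in limma). Cenpe, a kinesin of the kinetochore, had 1.51, 0.68 and 0.73 TPM in old libraries, against 17.4 and 17.8 TPM in middle-aged ones (-3.26, SE 1.00, adjusted p = 0.628 in limma).

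The mixed list of brakes and E2F partners split about evenly in sign, with 15 higher to 14 lower for old against young. It split 14 to 14 for middle-aged against young and 15 to 14 for old against middle-aged. At an unadjusted p under 0.05, 4 of its 29 tested genes were higher and 0 lower in old against young libraries. The background was 3.72% and 2.17% of all genes. Cdkn1a, the p21 inhibitor of cyclin-dependent kinases, had 137, 137 and 104 TPM in old libraries, 41.2 and 269 TPM in middle-aged ones, and 48.4, 17.9 and 39.8 TPM in young ones. Its lowest old value was above its highest young value, with a log2 difference of 1.90 (SE 0.63, unadjusted p = 0.0120, adjusted p = 0.728 in limma). Cdkn1c, the related p57 inhibitor, had 24.8, 25.8 and 23.2 TPM in old libraries, 8.33 and 11.1 TPM in middle-aged ones, and 5.43, 11.3 and 12.4 TPM in young ones. Its old libraries were tightly grouped and above all others (1.33 for old minus young, SE 0.52, adjusted p = 0.808 in limma). Lin37, a MuvB subunit, had 32.5, 4.59 and 24.7 TPM in old libraries and was listed at 0 in all middle-aged and young ones (adjusted p = 0.501 for old against young in limma). Btg1, an antiproliferative gene, had 207 and 178 TPM in middle-aged libraries, against 114, 84.8 and 129 TPM in young ones (0.83, SE 0.34, adjusted p = 0.580 in limma), and its difference for old minus middle-aged was -0.85 (adjusted p = 0.724). E2f4, a repressive E2F, had 3.94 and 0 TPM in middle-aged libraries, against 15.4, 5.35 and 11.7 TPM in young ones (-2.30, SE 1.03, adjusted p = 0.626 in limma).

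All wells of an age came from 1 mouse, so there is no test between ages. A median of 64 genes was found per old well (range 3 to 2950) against 1854 per young well (7 to 3621), and spike-in RNAs took a median of 95.6% against 66.6% of the library. Only 7 of 31 old wells reached 1000 genes, against 54 of 64 young wells. The index primers in the titles also differ between the ages, so index and age cannot be told apart. Members were found in 9 of 31 old wells (29.03%, exact 95% interval 14.2 to 48.04%), against 51 of 64 young wells (79.7%, 67.8 to 88.7%). Among wells with at least 1000 genes, members were found in 7 of 7 old wells (59.04 to 100%), against 49 of 54 young wells (90.7%, 79.7 to 96.9%). Those wells held a median of 5 members in old (1 to 7) and of 2.5 in young (0 to 16). The old share below the young one was thus seen only with the wells of few genes included. Across wells, members found and genes found correlated at a Spearman rho of 0.79 in old and 0.65 in young wells, a description in which both counts share the depth of the well.

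**Figure D4:**
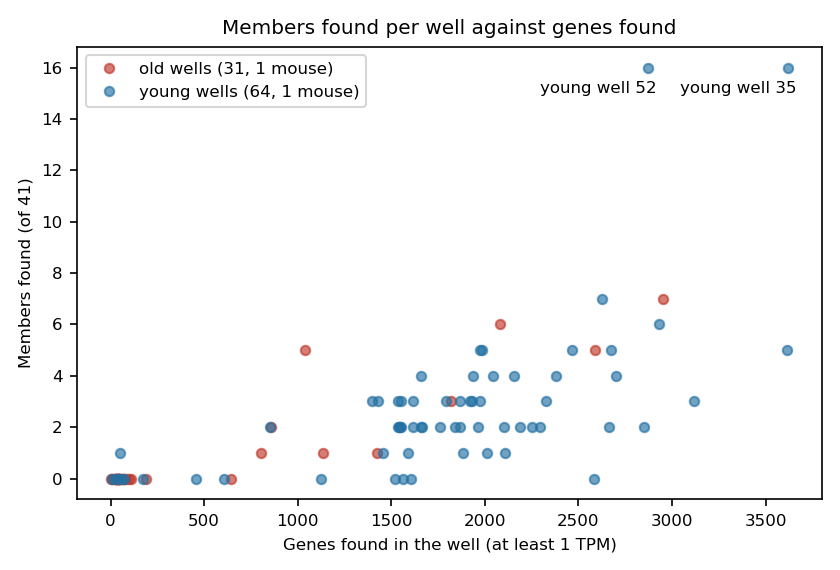
Members found per well, of 41, against all genes found per well at 1 TPM or more, for 31 old wells (red) and 64 young wells (blue). Of the wells under 1000 genes, 22 of 24 old and 8 of 10 young ones sit at 0 members and the others at 1 or 2, and young wells 35 and 52, with 16 members each, stand above the 0 to 7 members of all others.

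Genes of G1 and of the fork made up most of what the wells held. In old wells, 3 members were found in at least 10% of wells: Pold4 in 6, Pcna in 5 and Topbp1 in 4 of 31. In young wells there were 9: Ccnd3 in 22, Cdk4 and Pcna in 20 each, Pold4 in 13, Ccnd1 and Cdk2 in 10 each, Mcm4 and Cdk6 in 8 each and Mcm7 in 7 of 64. Where Ccnd3 was found, it had 9.72 to 19.2 TPM in 2 old wells, against 3.91 to 570 TPM (median 110) in 22 young wells. Pcna, where found, had 2.69 to 261 TPM in old wells (median 15.8), against 1.17 to 425 TPM in young wells (median 86.9). Spike-in RNAs are part of the TPM total of a well, so such levels also depend on its spike-in share. Among wells with at least 1000 genes, Pcna was found in 5 of 7 old wells (71.4%, 29.04 to 96.3%), against 20 of 54 young wells (37.04%, 24.3 to 51.3%), and Ccnd3 in 2 of 7 old wells (28.6%, 3.67 to 70.96%), against 22 of 54 young wells (40.7%, 27.6 to 54.97%). Both pairs of intervals overlap. Topbp1 was found in 3 of 7 such old wells (42.9%, 9.90 to 81.6%), against 2 of 54 young ones (3.70%, 0.45 to 12.7%). These intervals overlap only from 9.90 to 12.7%, and overlap of intervals is no test of a difference. Annotated pseudogenes of Topbp1 could share its reads, and the gene that overlaps Pold4 on its strand could share those of Pold4.

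Mitosis and G2 members were found in 0 of 31 old wells, which allows a share of up to 9.68% of wells, against 5 of 64 young wells (7.81%, 2.59 to 17.3%). Only 7 of those old wells had 1000 genes, and 0 of 7 allows up to 42.9%, a limit above the young share. The limit covers counting between wells of 1 mouse and does not test the ages against each other. Nucleotide synthesis members were found in 0 of 31 old wells, against 12 of 64 young wells (18.8%, 10.1 to 30.5%). Among wells with at least 1000 genes, such members were found in 0 of 7 old wells, again allowing up to 42.9%. The young count was 12 of 54 wells (22.2%, 12.04 to 35.6%), and here too the ages were not tested against each other. G1 members were found in 4 of 7 old wells with at least 1000 genes (57.1%, 18.4 to 90.1%), against 41 of 54 young ones (75.9%, 62.4 to 86.5%). Licensing and helicase members were found in 4 of 7 such old wells (57.1%, 18.4 to 90.1%), against 19 of 54 young ones (35.2%, 22.7 to 49.4%). In all, 28 members were found in no old well and 7 in no young well, namely Ccne1, Cdc6, Gins2, Aurkb, Bub1, Plk1 and E2f1. Cdc45, at 0 in old bulk libraries, was among the members found in no old well, but it was found in only 2 of 64 young wells. Its absence from the old wells therefore adds nothing to the bulk result. Over the 41 members, the young bulk mean and the share of young wells with the gene had a Spearman rho of 0.61, a description across genes from different young mice.

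Members were concentrated in 2 young wells, each with 16, while the other 62 young wells held 0 to 7. Numbers of wells serve only as names. Young well 35 held Cenpa (the centromeric histone) at 412 TPM, Top2a at 385 TPM, Ccnb2 at 243 TPM, Aurka at 215 TPM, Cdk1 at 123 TPM, Rrm2 at 92.1 TPM, Birc5 (survivin, a partner of Aurora B) at 67.6 TPM and Mki67 at 65.2 TPM. It held 9 of the 12 mitosis and G2 members and 0 of the 12 licensing and helicase members at 1 TPM or more. Mcm5 at 0.9 TPM and Gins2 at 0.84 TPM lay just under that level. Young well 52 held Cdk4 at 798 TPM, Pcna at 425 TPM, Ccnd3 at 336 TPM, Mcm7 at 226 TPM, Mcm4 at 113 TPM, Mcm5 at 99.97 TPM, Cdc45 at 99.7 TPM and Mcm6 at 65.1 TPM, with Cdt1 at 16.2 TPM. It held 7 of the 12 licensing and helicase members and 1 of the 12 mitosis and G2 members, Top2a at 5.54 TPM. The other replication roles did not divide the wells in this way. Fork members numbered 3 of 4 in well 35 and 2 of 4 in well 52. Nucleotide synthesis members numbered 2 of 3 in well 35 and 1 of 3 in well 52.

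The wells shared 4 of their 16 members (25% of each set), Ccnd1, Pcna, Pold1 and Top2a. Of the 28 members found in either, 9 were found in no other young well: Aurka, Ccna2, Ccnb1, Ccnb2, Cdk1, Cdt1, Mcm5, Pold1 and Top2a. The matching share over all genes found in these wells was not counted, so 9 of 28 has no background to be set against. Genes of the pathways outside the 41 were counted in the same wells. Well 35 held 33 of the 40 other mitosis genes and 11 of the 44 other replication genes. Well 52 held 6 of the other mitosis genes and 15 of the other replication genes. The other 62 young wells held 0 to 4 of those mitosis genes and 0 to 6 of those replication genes. Because the wells were picked out for their number of members, these counts are a description and carry no test.

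Both wells were deep, with 3621 genes found in well 35 and 2874 in well 52, and the spike-in share was 41.8% and 52.9%. The 4 other young wells with about as many genes, 2853 to 3614, held 2 to 6 members, 2 to 3 of the other mitosis genes and 1 to 3 of the other replication genes. Muscle stem cell markers numbered 8 of 10 in well 35 and 6 of 10 in well 52. The median was 5 in all other young wells and 6 in those with at least 1000 genes. Young wells 4, 13, 18 and 49, the 4 of similar depth, held 7, 9, 8 and 7 of these markers, all above well 52. No macrophage, Schwann cell or red blood cell marker was found in well 35 or well 52. Fibroblast markers numbered 3 of 7 in well 35 and 1 of 7 in well 52, and smooth muscle and pericyte markers 2 of 5 in each, both within the 0 to 3 of the other young wells. Well 35 also held 1 of 6 endothelial and 1 of 6 lymphocyte markers, within the 0 to 1 of the other young wells, and well 52 held 0 of each. Whether a well held more than 1 cell was not tested. Without these 2 wells, mitosis and G2 members reached at most 1 per young well.

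**Figure D5:**
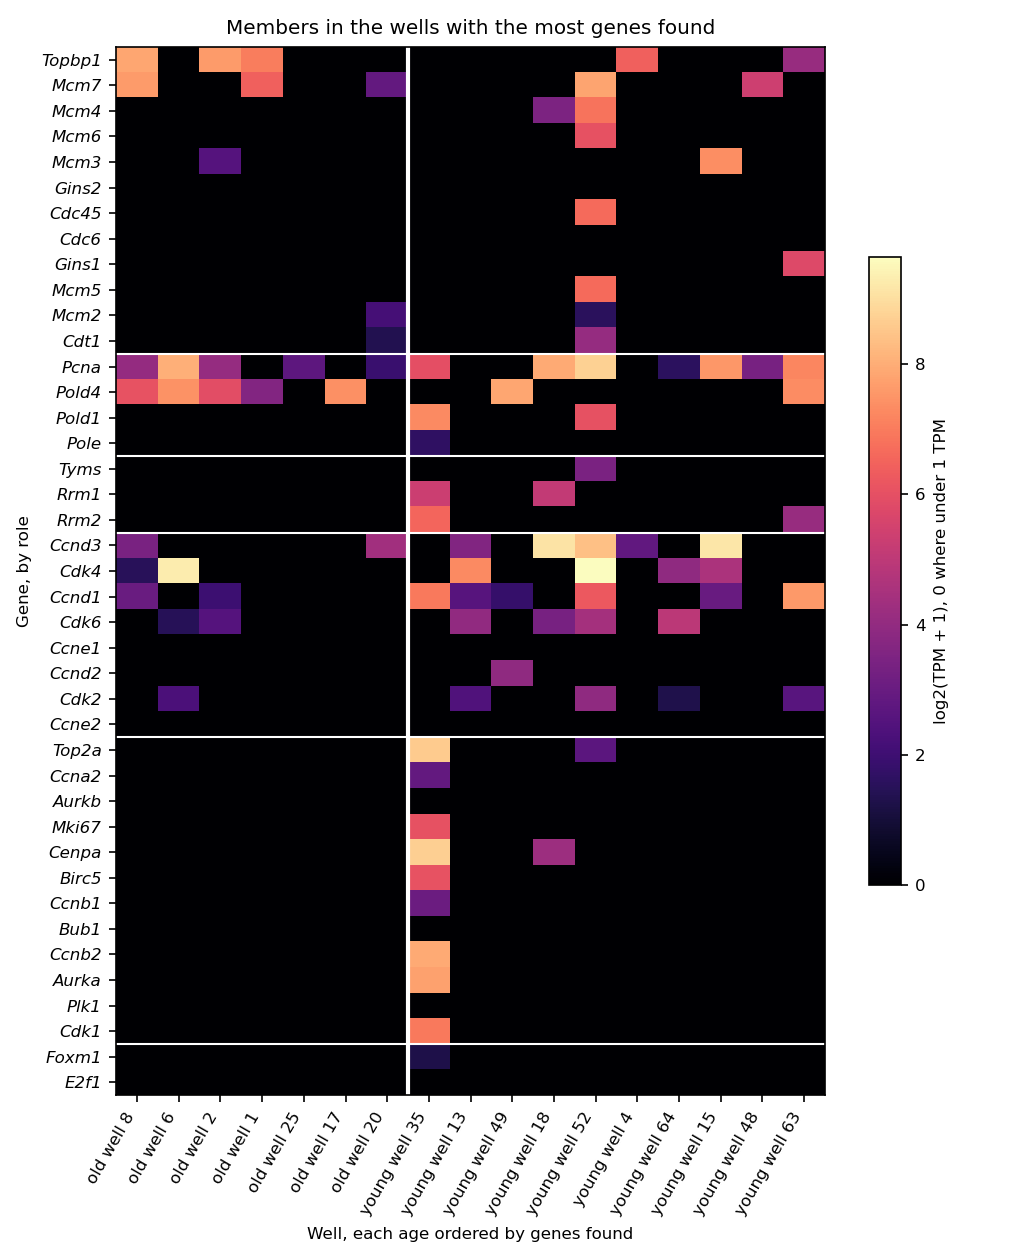
Levels of the 41 members (rows, by role) as log2(TPM + 1) in 17 wells: the 7 old wells with at least 1000 genes (left) and the 10 young wells with the most genes found (right), each age ordered by genes found. Well 35 shows a block of mitosis and G2 members and well 52 a block of licensing and helicase members, while the old wells show scattered members, chiefly Pold4 and Pcna.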

How the data were processed

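Expression was measured in 8 bulk libraries and 95 single-cell wells. The values of both tables were deposited by the authors as TPM (transcript abundances scaled to a common total), per the labels. STAR and the mm10 build are named per the submitters' processing notes. The annotation, strandedness, quantifier and STAR version were not stated (not given in the sources used here). A depth of 30000000 to 40000000 reads of 75 bases per sample is stated in a protocol text shared by bulk libraries and wells. Reads behind a value cannot be read from TPM, so precision rests on the spread between libraries. Of 45798 bulk entries, 2423 carried neither an Ensembl ID nor a spike-in name and were left out.

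Members were matched by symbol. The members, their roles, the pathway and marker lists and the tests were chosen with earlier results of these data known. Bulk ages were compared on log2(TPM + 1) with limma 3.58.1 (R 4.3.3). The 22492 genes averaging 1 TPM or more entered, with 8 libraries in a single model, a mean per age, an intensity trend and a two-sided moderated test per gene. Benjamini-Hochberg adjustment ran over all tested genes within a comparison, at 0.05. The procedure was tested on simulated data. Differences on this scale understate changes of low genes. They are printed for members with an unadjusted p under 0.05, or with a mean of at least 5 TPM and groups that do not overlap, and from each pathway list for at most 4 genes with an unadjusted p under 0.05 and groups that do not overlap. For further members, differences without single libraries were added after their values were seen. The design text describes the bulk libraries as separate mice. In wells, a gene at 1 TPM or more was called found, and shares carry exact Clopper-Pearson 95% intervals. A gene in 0 wells has an upper limit of 3 wells. Both cover only counting error. No doublet caller was run.

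Alternatives were the pseudocount, the filter, the scaling, the libraries in the model, the variance trend, a replicate block, leaving out each library, and the threshold and depth of wells. Positions are from GENCODE vM21 and promoters from RefSeq on GRCm38.p6. Other tools were matplotlib 3.10.9, scipy 1.17.1, pandas 2.3.3 and numpy 2.4.6 on Python 3.11.15.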

Additional observations from a re-analysis of the deposited data

How the results depend on the processing

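Of the 12 members with an SE or p printed in the report, none turned direction or passed the threshold under any alternative run. This refers to the comparison each is printed for. Their groups do not overlap there, so leaving out a library or changing the pseudocount could not turn the sign. Of all 36 tested members, the sign turned on leaving out at least 1 library for 14 in old against young, 15 in middle-aged against young and 20 in old against middle-aged. The count of members past the threshold stayed at 0 for old against young under all alternatives, while the median log2 difference of members was 0.036 to 0.32 when each library was left out. Without middle-aged replicate 1, which leaves a lone middle-aged library assumed to vary like the other groups, it was 1 (Aurka, found only in that remaining library) for both comparisons with middle-aged libraries, in which 600 (against young) and 580 (against old) genes then passed, so its range over left-out libraries was 0 to 1. The median log2 difference of members for middle-aged against young was 1.12 with a pseudocount of 0.1, and 0.24 to 0.87 when each library was left out, the highest without young replicate 1. For old against middle-aged it was -0.56 to -0.025 when each library was left out, the lowest without old replicate 3.

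With the replicate number as a block, the median for old against middle-aged was -0.52, and the block changed no call of a member. Numbers give no pairing here: after removal of group means, same-numbered libraries correlated at -0.012 to 0.005.

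Counts at an unadjusted p under 0.05 varied most for members higher in middle-aged than in young libraries, 2 to 8, with 8 without young replicate 1. The share of wells with a member was 100% in old and 90.7% in young wells with at least 1000 genes. Leaving out the 2 young wells with 16 members, chosen after seeing the data, gave a young share of 79.03%. Both wells held members, so this outcome was fixed by the counts and is no check of the share. Bulk groups of 2 or 3 libraries and frequent listed zeros limit all single-gene values.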
